A study of Mus musculus with 11 samples.

Results

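The genes described here are 39 named interferon response genes of mouse liver, out of 19207 genes in the count table. They were taken as a fixed list of gene symbols, chosen with earlier results of these data known. All 39 were present in the table and passed the filter on low counts. By the interferon they are best known to answer to, 26 were classed as type I induced and 11 as gamma-induced, the latter being the Gbp, Irg (Iigp1, Igtp, Irgm1, Irgm2 and Tgtp1) and Psmb genes. The other two, Irf1 and Tap1, are induced by both and were counted apart. RNA was sequenced from livers of C57BL/6 mice that were wild type or Hmgb2-/- (knockout) and had been given oil or carbon tetrachloride (CCl4), a solvent that liver cells turn into a toxic radical. Hmgb2 encodes a chromatin protein that bends DNA. The groups were WT_Oil with 3 libraries (numbered 1, 2 and 3), WT_CCL4 with 3 (4, 5 and 6), KO_Oil with 2 (11 and 12) and KO_CCL4 with 3 (24, 25 and 15). Age, sex, dose, duration and the make of the knockout allele are not stated in the labels. The labels also do not say that each library came from its own animal, so p-values measure the spread between these libraries.

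Type I interferons (the alpha and beta family) bind the Ifnar1 and Ifnar2 receptor, and a complex that holds Stat2 and Irf9 then binds a DNA element called the ISRE. Interferon gamma, made mainly by T and NK cells, binds the Ifngr1 and Ifngr2 receptor and acts through a different element, the GAS. Type I induced genes are known for blocking viruses, through RNA sensing, RNA decay and arrest of viral translation. The guanylate-binding proteins (Gbp), the immunity-related GTPases (Irg) and the immunoproteasome subunits (Psmb) are known for attack on vacuoles that hold microbes and for cutting proteins into peptides for display to T cells. In liver, hepatocytes, Kupffer cells and sinusoidal endothelium all respond to interferons.

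Total counts ran from 7306082 (KO_Oil 11) to 14116886 (WT_CCL4 4). Hmgb2 itself was at 1.93 to 7.42 CPM (counts scaled to a common library size) in the 6 wild-type libraries and at 0 to 0.951 CPM in the 5 knockout libraries. Within groups, the rank correlation of a gene's deviation with its GC content was 0.613 in WT_Oil 1, against -0.514 and -0.473 in WT_Oil 2 and 3. It was -0.464, 0.377 and -0.002 in WT_CCL4 4, 5 and 6. In KO_Oil 11 and 12, each set against the other, it was 0.266 and -0.266. In KO_CCL4 24, 25 and 15 it was 0.011, 0.209 and -0.179. The titles of KO_CCL4 24 and 25 carry the letter E where the other libraries carry S, and the labels do not explain the letter. KO_CCL4 25 was the highest of its group for 32 of the 39 genes and KO_CCL4 15 the lowest for 31.

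After oil, 12 of the 39 interferon response genes were called higher in Hmgb2-/- liver than in wild-type liver and 0 lower, and 7 of the 12 were gamma-induced. That is 30.8% called higher, against 2.19% higher and 1.92% lower over the 16866 genes tested. Calls rest on edgeR's quasi-likelihood test with a Benjamini-Hochberg adjusted p under 0.05. Of the gamma-induced genes 7 of 11 were called, with a median log2 fold change of 1.62, and of the type I induced genes 4 of 26 with a median of 0.55. The median over all genes tested was 0.01. The difference between the classes itself was not tested. The groups did not overlap, with both knockout libraries above all 3 wild-type libraries, for 11 of 11 gamma-induced and 17 of 26 type I induced genes, against 19.7% of all genes. In bulk liver, a change in the number of cells of a type and a change in RNA per cell cannot be told apart.

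**Figure D1:**
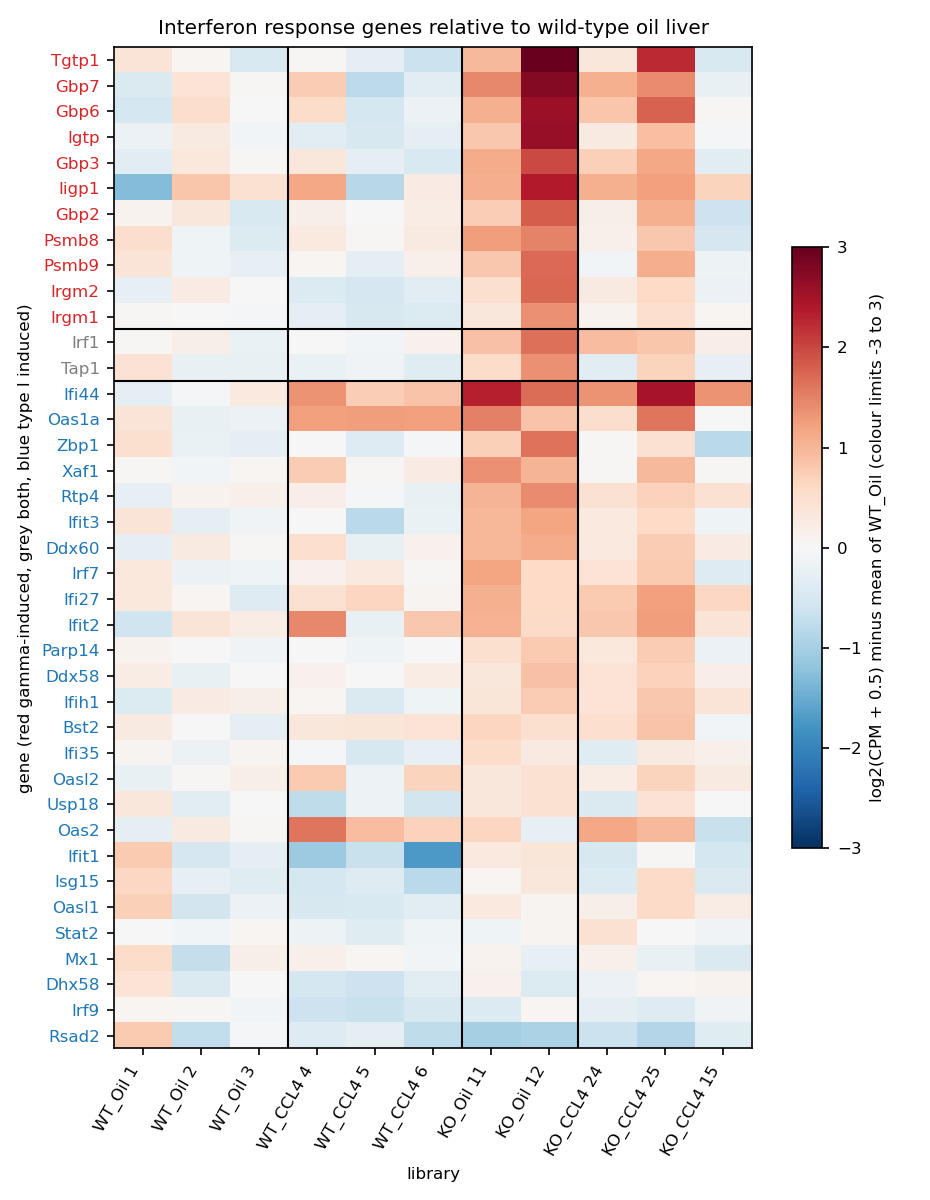
Level of each of the 39 genes (rows, names red for gamma-induced, grey for both, blue for type I induced) in each of the 11 libraries (columns), as log2(CPM + 0.5) minus the mean of the 3 WT_Oil libraries, with colours limited to -3 and 3. The 11 gamma-induced rows are red in both KO_Oil libraries and darkest in KO_Oil 12, while the type I induced rows are mixed.

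Leaving out single libraries moved this count of 12. The count fell to 1 without KO_Oil 12 (Ifi44), 4 without KO_Oil 11 (Igtp, Irgm1, Irgm2 and Irf1), 2 without WT_Oil 3, 4 without WT_CCL4 6, 5 without WT_Oil 1, 6 without WT_Oil 2 (1 of them lower), and 7 without WT_CCL4 4 or KO_CCL4 24. It was 13 without WT_CCL4 5, 18 without KO_CCL4 25 and 19 without KO_CCL4 15. Leaving out either KO_Oil library, or WT_Oil 3, also left few calls over all genes. There were 130 without WT_Oil 3, against 370 higher and 324 lower with all libraries. The median of the gamma-induced genes fell to 0.845 without KO_Oil 12, and that of the type I induced genes stayed between 0.52 and 0.64 in the 11 fits that each left out a library.

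The immunity-related GTPases coat and disrupt vacuoles that hold microbes, and 4 of the 5 were called higher after oil. Igtp, also known as Irgm3, a regulator of the family (chromosome 11, positions 58199555 to 58207591 on mm10, plus strand), was at 25.5, 35.0 and 27.3 CPM in WT_Oil and at 51.0 and 179 CPM in KO_Oil. After CCl4 it was at 22.9, 20.5 and 23.6 CPM in wild type and at 35.0, 55.0 and 28.2 CPM in knockout libraries 24, 25 and 15. The lower KO_Oil library was thus above every wild-type library, and the log2 fold change was 1.97 ± 0.40 (SE, adjusted p = 0.0204). It was 0.80 without KO_Oil 12 (adjusted p = 0.249). The mean was 29.3 ± 5.03 CPM (SD, n = 3) in WT_Oil and 115 ± 90.7 CPM (SD, n = 2) in KO_Oil.

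Irgm1, another regulator of the family, was at 53.9, 52.4 and 51.0 CPM in WT_Oil and at 66.9 and 136 CPM in KO_Oil. It was at 42.9, 37.3 and 39.7 CPM in WT_CCL4 and at 56.3, 74.2 and 54.2 CPM in KO_CCL4. Its wild-type libraries lay close together and below all 5 knockout libraries, and its log2 fold change after oil was 0.95 ± 0.24 (adjusted p = 0.0462), or 0.36 without KO_Oil 12 (adjusted p = 0.439). Irgm2, which can share reads with the overlapping Igtp on the same strand, was at 50.5, 72.2 and 60.2 CPM in WT_Oil, 45.6, 42.4 and 47.5 CPM in WT_CCL4, 84.4 and 201.5 CPM in KO_Oil and 73.4, 92.0 and 53.0 CPM in KO_CCL4. It was higher in both KO_Oil libraries than in any wild-type library, by a log2 fold change of 1.23 ± 0.31 (adjusted p = 0.0443), or 0.47 without KO_Oil 12 (adjusted p = 0.449). Its counts and those of Igtp may not be independent, since a read in the shared stretch can count for both, and such reads were not counted here.

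Tgtp1, a T cell and interferon-induced GTPase that targets vacuoles, had the largest fold change of the 39 in this comparison. It was at 5.34, 4.12 and 2.73 CPM in WT_Oil and 4.02, 3.14 and 2.35 CPM in WT_CCL4, but at 8.18 and 76.1 CPM in KO_Oil and 5.13, 20.3 and 2.72 CPM in KO_CCL4. The knockout libraries differed from each other by 9.30-fold after oil, so the log2 fold change of 3.38 ± 0.82 (adjusted p = 0.0398) leans on KO_Oil 12 and was 1.02 without it. Tgtp1 has a near-identical copy, Tgtp2, and how the authors' counting split reads between them is not given. Iigp1, the effector of the family, was at 74.1, 322 and 252 CPM in WT_Oil, 409, 102 and 215 CPM in WT_CCL4, 388 and 943 CPM in KO_Oil and 385, 425 and 289 CPM in KO_CCL4. Both KO_Oil libraries were above WT_Oil, whose own libraries lay far apart, and the log2 fold change of 1.62 ± 0.59 was not called (adjusted p = 0.142).

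The guanylate-binding proteins gather on microbial membranes and break them open, and 2 of the 4 were called higher after oil. Gbp7 was at 8.29, 15.2 and 11.7 CPM in WT_Oil, 19.7, 6.46 and 8.85 CPM in WT_CCL4, 31.9 and 80.05 CPM in KO_Oil and 24.6, 31.2 and 9.66 CPM in KO_CCL4. Both KO_Oil libraries were above all others, with KO_CCL4 25 close behind, and the log2 fold change after oil was 2.24 ± 0.53 (adjusted p = 0.0360), or 1.44 without KO_Oil 12 (adjusted p = 0.293). Gbp3 was at 4.31, 7.09 and 5.75 CPM in WT_Oil, 7.23, 4.45 and 3.96 CPM in WT_CCL4, 12.6 and 23.8 CPM in KO_Oil and 9.58, 13.2 and 4.43 CPM in KO_CCL4. Its log2 fold change was 1.66 ± 0.42 (adjusted p = 0.0448), with no overlap between WT_Oil and KO_Oil.

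Gbp2 was at 9.31, 10.9 and 6.14 CPM in WT_Oil, 9.68, 8.55 and 10.1 CPM in WT_CCL4, 14.5 and 31.5 CPM in KO_Oil and 9.77, 18.5 and 5.43 CPM in KO_CCL4. Its log2 fold change of 1.39 ± 0.43 after oil missed the threshold (adjusted p = 0.0881), although both KO_Oil libraries were above WT_Oil. Gbp6, which shares sequence with its near-identical neighbour Gbp10, had a log2 fold change of 2.02 ± 0.54 (adjusted p = 0.0568).

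Promoter sequences were searched for the ISRE and GAS elements. The 39 were listed as interferon response genes, so a share above that of all genes can follow from the choice of list. RefSeq promoter entries (GRCm38.p6) were found for 29 of the 39 genes, and the 250 bases before the start were searched on both strands for the ISRE core GAAANNGAAA and the GAS core TTCNNNGAA. The ISRE core was present in 15 of 29 (51.7%) against 3.46% of 27025 genes, in 7 of 9 gamma-induced and 8 of 18 type I induced genes. The GAS core was present in 9 of 29 (31.0%) against 8.13% of all genes, in 5 of 9 gamma-induced and 3 of 18 type I induced genes. The 8 windows below belong to the called genes with an ISRE core and the lowest p, and capitals mark the ISRE core (written TTTCNNTTTC when it lies on the other strand) and, within 40 bases of it, the GAS core. They are written 5′ to 3′ along the gene's strand.
Igtp (gamma-induced, chr11:58199496-58199546, plus strand): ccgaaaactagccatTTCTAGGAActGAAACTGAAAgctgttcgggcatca
Irgm2 (gamma-induced, chr11:58214887-58214937, plus strand): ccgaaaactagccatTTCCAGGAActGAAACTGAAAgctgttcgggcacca
Tgtp1 (gamma-induced, chr11:48992299-48992349, minus strand): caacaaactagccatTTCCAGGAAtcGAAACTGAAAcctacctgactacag
Irgm1 (gamma-induced, chr11:48871421-48871465, minus strand): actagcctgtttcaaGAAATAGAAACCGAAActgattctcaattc
Gbp7 (gamma-induced, chr3:142530234-142530307, plus strand): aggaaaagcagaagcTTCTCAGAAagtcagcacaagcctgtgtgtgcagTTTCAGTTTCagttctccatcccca
Gbp3 (gamma-induced, chr3:142559984-142560029, plus strand): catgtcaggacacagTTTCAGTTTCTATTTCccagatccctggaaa
Ddx60 (type I induced, chr8:61928019-61928086, plus strand): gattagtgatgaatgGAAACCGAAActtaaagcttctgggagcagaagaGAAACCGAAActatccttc
Ifit3 (type I induced, chr19:34583358-34583431, plus strand): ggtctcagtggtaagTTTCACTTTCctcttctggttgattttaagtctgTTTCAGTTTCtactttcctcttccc
In Igtp, Irgm2 and Tgtp1 the GAS core ended 2 bases before the ISRE core. The Igtp and Irgm2 windows were identical at 49 of 51 positions, and the Tgtp1 window was identical to that of Irgm2 at 36. Gbp3 and Irgm1 each held 2 overlapping ISRE cores and no GAS core in the printed window, and Ddx60 and Ifit3 held 2 ISRE cores that lay apart. A match describes letters only and does not show that a factor binds there.

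Antigen processing genes cut proteins into peptides and carry them to class I molecules. Psmb8 (LMP7), an immunoproteasome subunit, was at 24.5, 15.3 and 12.47 CPM in WT_Oil, 20.6, 17.2 and 20.2 CPM in WT_CCL4, 40.9 and 48.3 CPM in KO_Oil and 18.6, 29.5 and 11.7 CPM in KO_CCL4. Unlike Tgtp1 or Igtp, its KO_Oil libraries lay close together, and the log2 fold change after oil was 1.36 ± 0.33 (adjusted p = 0.0395). Psmb9 (LMP2), whose gene overlaps Tap1 on the other strand, had a log2 fold change of 1.35 ± 0.38 (adjusted p = 0.0673). Tap1, which pumps peptides into the endoplasmic reticulum, was at 36.4, 23.02 and 22.9 CPM in WT_Oil, 23.4, 24.7 and 20.6 CPM in WT_CCL4, 39.5 and 70.3 CPM in KO_Oil and 21.3, 42.6 and 22.4 CPM in KO_CCL4. Its log2 fold change of 1.004 ± 0.32 was not called (adjusted p = 0.0974), and the lower KO_Oil library was close to WT_Oil 1.

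Among the transcription factors, edgeR called Irf1 higher after oil and did not call Irf7, Stat2 or Irf9. The authors' deposited DESeq2 values instead put Irf7 below the threshold (adjusted p = 0.043) and Irf1 above it (adjusted p = 0.173). DESeq2 run here on the deposited counts did call Irf1 higher. Irf1, which is itself induced by interferons and binds ISRE-like sites, was at 26.0, 28.4 and 21.8 CPM in WT_Oil, 25.4, 23.7 and 27.5 CPM in WT_CCL4, 46.8 and 80.05 CPM in KO_Oil and 48.7, 45.5 and 29.0 CPM in KO_CCL4. All 5 knockout libraries were above all 6 wild-type libraries, and the log2 fold change was 1.32 ± 0.25 after oil (adjusted p = 0.0158). After CCl4 it was 0.69 ± 0.22 (adjusted p = 0.148).

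Irf7, which amplifies type I interferon production, was at 34.1, 24.4 and 24.9 CPM in WT_Oil, 29.9, 33.8 and 28.0 CPM in WT_CCL4, 62.9 and 41.7 CPM in KO_Oil and 36.4, 47.9 and 21.0 CPM in KO_CCL4. Its log2 fold change after oil was 0.91 ± 0.29 (adjusted p = 0.0952), with the higher value in KO_Oil 11, the reverse of the order in the gamma-induced genes. Stat2, a member of the type I complex, was at 53.5, 49.9 and 54.7 CPM in WT_Oil, 47.4, 40.7 and 47.8 CPM in WT_CCL4, 48.1 and 56.0 CPM in KO_Oil and 72.6, 52.2 and 49.1 CPM in KO_CCL4. Its WT_Oil and KO_Oil values overlapped, and the log2 fold change was -0.02 ± 0.18 (adjusted p = 0.975). Irf9, the DNA-binding member of the type I complex, had a log2 fold change of -0.16 ± 0.17 after oil (adjusted p = 0.636), and its values are given with the CCl4 comparison.

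Of the 5 RNA and DNA sensors 1 was called higher after oil. Ddx60, a helicase linked to the sensing of viral RNA, was at 8.97, 13.3 and 11.3 CPM in WT_Oil, 15.9, 9.42 and 12.2 CPM in WT_CCL4, 22.4 and 24.6 CPM in KO_Oil and 13.6, 19.0 and 13.3 CPM in KO_CCL4. Its KO_Oil libraries were the 2 highest of all 11, and the log2 fold change was 1.06 ± 0.25 (adjusted p = 0.0349). Ifih1 (MDA5), a sensor of long double-stranded RNA, was at 31.2, 50.0 and 47.05 CPM in WT_Oil, 43.8, 31.0 and 38.2 CPM in WT_CCL4, 53.7 and 71.8 CPM in KO_Oil and 56.1, 73.8 and 54.6 CPM in KO_CCL4. All its knockout libraries were above all wild-type libraries, but neither comparison was called (log2 fold change 0.55 ± 0.23, adjusted p = 0.206 after oil, and 0.71 ± 0.21, adjusted p = 0.112 after CCl4). Ddx58 (RIG-I), the sensor of short capless viral RNA, was at 40.6, 29.9 and 34.7 CPM in WT_Oil, 38.0, 35.0 and 40.8 CPM in WT_CCL4, 43.9 and 64.2 CPM in KO_Oil and 46.1, 56.7 and 40.2 CPM in KO_CCL4. KO_Oil 11 was only a little above WT_Oil 1, and the log2 fold change was 0.63 ± 0.20 (adjusted p = 0.102). The other two, Dhx58 and Zbp1, had log2 fold changes of -0.16 and 1.30 and were not called.

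The antiviral effectors had a median log2 fold change of 0.34 after oil. Of 10 such genes 1 was called higher after oil, Ifit3, which joins Ifit1 in a complex that holds back viral RNA. Ifit3 was at 12.9, 8.08 and 9.06 CPM in WT_Oil, 9.93, 5.41 and 8.57 CPM in WT_CCL4, 20.2 and 23.1 CPM in KO_Oil and 12.2, 15.2 and 8.95 CPM in KO_CCL4. Both KO_Oil libraries were above all others, with a log2 fold change of 1.12 ± 0.29 (adjusted p = 0.0488). Ifit3 has a near-identical copy, Ifit3b, so the split of its reads is uncertain.

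Oasl2, an oligoadenylate synthetase-like protein, was at 5.11, 6.17 and 6.92 CPM in WT_Oil, 10.7, 5.41 and 9.89 CPM in WT_CCL4, 7.75 and 8.43 CPM in KO_Oil and 7.06, 9.81 and 7.34 CPM in KO_CCL4. Its log2 fold change after oil was 0.41 ± 0.30 (adjusted p = 0.483). The remaining effectors ranged from -1.13 for Rsad2 (viperin) to 1.37 for Oas1a on the log2 scale, without a call. Rsad2, singled out here after its values were seen, was the only one of the 39 whose KO_Oil libraries were both below WT_Oil. It was at 43.8, 14.9 and 24.6 CPM in WT_Oil and at 12.4 and 12.8 CPM in KO_Oil (adjusted p = 0.101), and DESeq2 called it lower (adjusted p = 0.0402).

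Isg15, a ubiquitin-like protein joined to other proteins during the response, was at 4.88, 2.44 and 2.24 CPM in WT_Oil, 1.95, 2.18 and 1.51 CPM in WT_CCL4, 3.16 and 3.94 CPM in KO_Oil and 2.13, 4.70 and 2.11 CPM in KO_CCL4. Usp18, which removes it and damps the type I receptor, was at 20.2, 12.5 and 16.0 CPM in WT_Oil, 9.24, 14.4 and 10.6 CPM in WT_CCL4, 20.2 and 21.9 CPM in KO_Oil and 11.7, 21.8 and 16.2 CPM in KO_CCL4. Neither was called between genotypes after oil, with log2 fold changes of 0.18 ± 0.44 (adjusted p = 0.875) and 0.38 ± 0.28 (adjusted p = 0.485). In both genes WT_Oil 1 was the highest of its group, as it was for 16 of the 26 type I induced genes.

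Of 6 other type I induced genes 2 were called higher after oil. Rtp4, a receptor transporter protein with antiviral action, had the lowest p of the 39. Rtp4 overlaps Masp1 on the other strand and Gm45338 on the same strand. It was at 11.1, 14.3 and 14.9 CPM in WT_Oil, 15.4, 13.1 and 11.4 CPM in WT_CCL4, 27.6 and 36.3 CPM in KO_Oil and 18.6, 21.8 and 18.4 CPM in KO_CCL4. Knockout and wild-type libraries did not overlap, and the log2 fold change was 1.24 ± 0.20 after oil (adjusted p = 0.00727) and 0.56 ± 0.18 after CCl4 (adjusted p = 0.138). Ifi44, an interferon-induced protein, was at 1.14, 1.45 and 1.95 CPM in WT_Oil, 4.53, 2.79 and 3.11 CPM in WT_CCL4, 9.48 and 5.84 CPM in KO_Oil and 4.55, 10.47 and 4.53 CPM in KO_CCL4. The 3 WT_Oil libraries were the lowest of all 11, and the log2 fold change after oil was 2.32 ± 0.44 (adjusted p = 0.0158). Ifi27, Ifi35, Parp14 and Xaf1 had log2 fold changes of 0.83, 0.42, 0.64 and 1.29 and none was called.

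**Figure D2:**
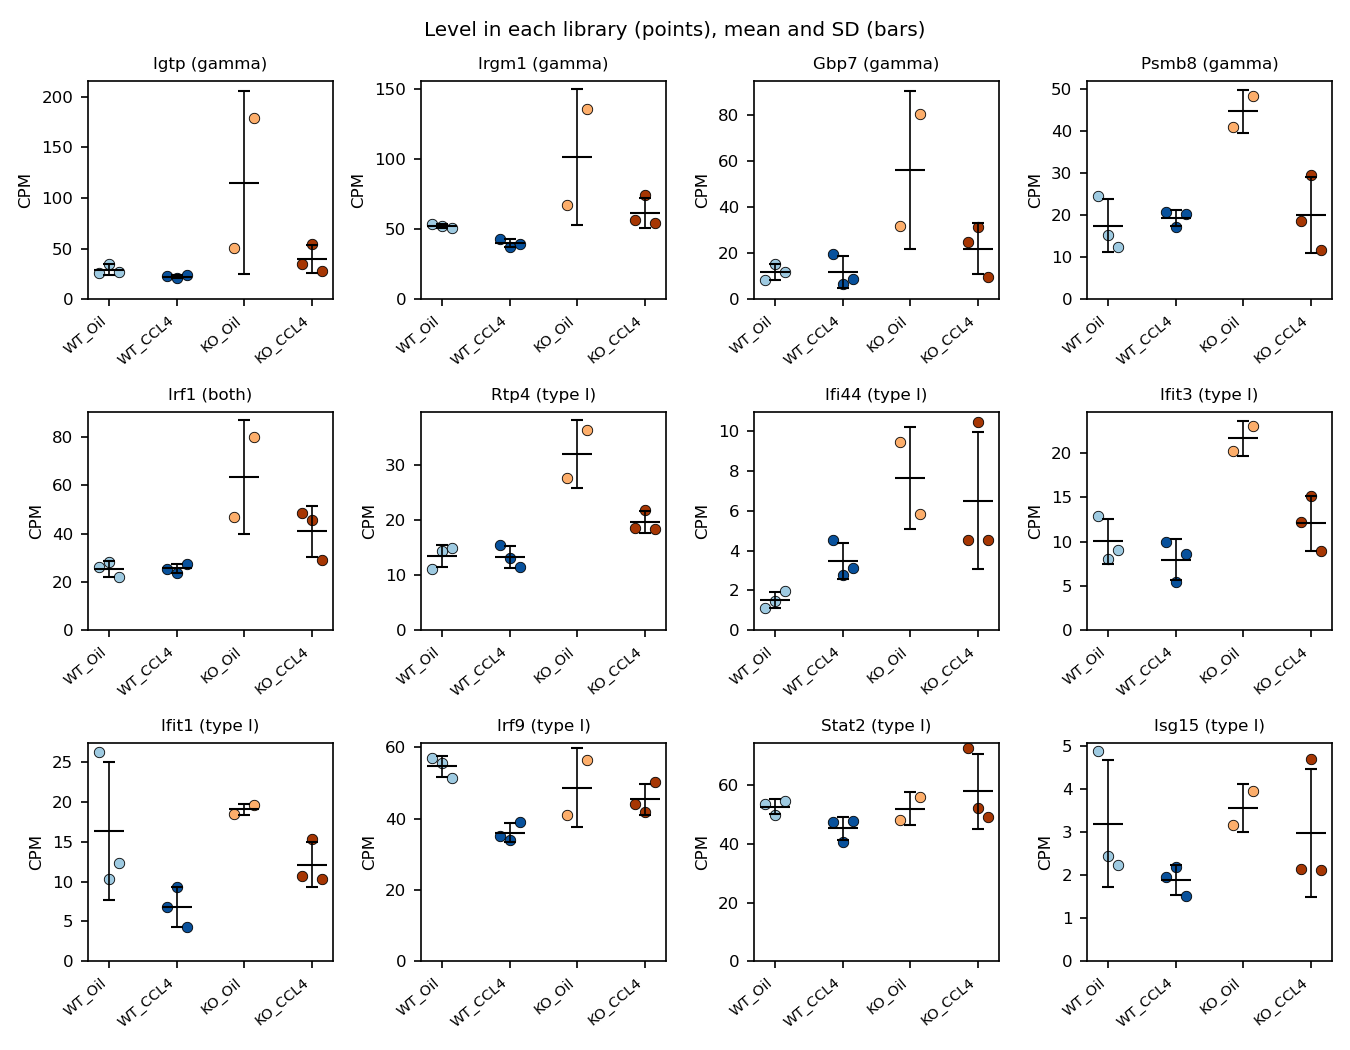
CPM in each library (points) for 12 of the genes, with the group mean (long bar) and SD (error bars), for WT_Oil, WT_CCL4 and KO_CCL4 (n = 3) and KO_Oil (n = 2). Both KO_Oil points lie above all WT_Oil points for Igtp, Irgm1, Gbp7, Psmb8, Irf1, Rtp4, Ifi44 and Ifit3, but not for Ifit1, Irf9, Stat2 and Isg15.

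The 2 KO_Oil libraries differed from each other in the gamma-induced genes. Relative to KO_Oil 11, KO_Oil 12 was higher for all 11 gamma-induced genes, with a median ratio of 2.39, and at least 2-fold higher for 8 of them (72.7%, against 4.68% of genes with a read). The 26 type I induced genes had a median ratio of 1.05, and none was at least 2-fold higher in KO_Oil 12. Of these 26 genes 14 were higher in KO_Oil 12 and 12 in KO_Oil 11, and the lowest ratio was 0.473, for Oas2. The ratio was 9.30 for Tgtp1 and 3.52 for Igtp, but 1.18 for Psmb8. With 1 library on each side this is a description of those libraries and has no replicate check.

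**Figure D3:**
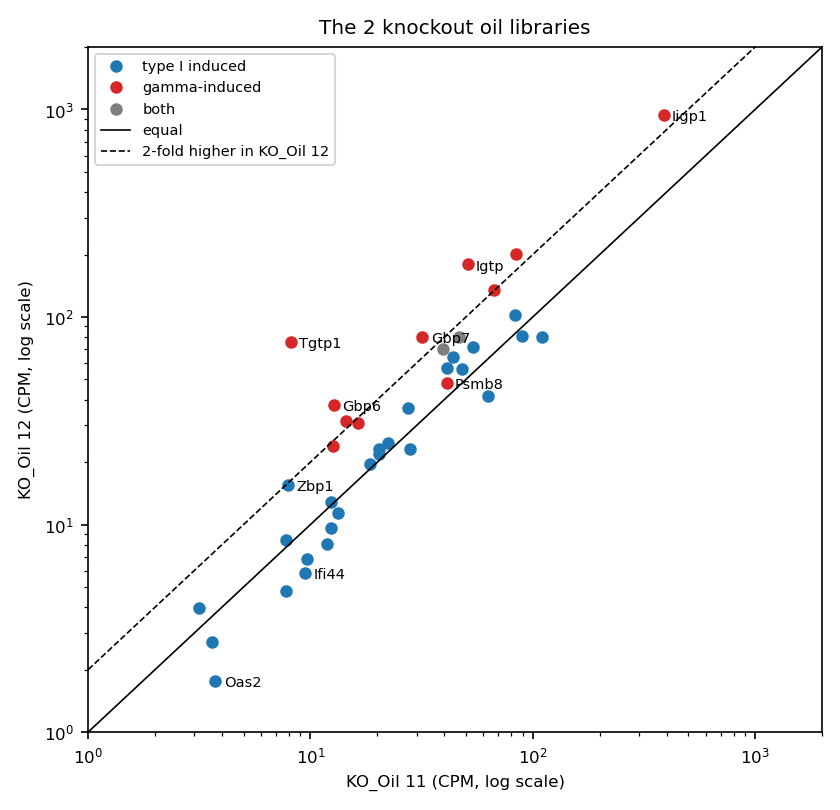
CPM of the 39 genes in KO_Oil 12 (vertical) against KO_Oil 11 (horizontal), both on log scales, with the line of equal level and the line of 2-fold higher in KO_Oil 12. Red gamma-induced points lie on or near the 2-fold line or above it, with Psmb8 near the line of equality, and blue type I induced points scatter about the line of equality.

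The summed level of T and NK cell markers, the cells that make interferon gamma, was 8.86 to 11.97 CPM in WT_Oil, 11.8 to 13.5 CPM in WT_CCL4, 22.7 and 24.6 CPM in KO_Oil, and 9.58, 21.5 and 8.85 CPM in KO_CCL4 24, 25 and 15. Both KO_Oil libraries and KO_CCL4 25 had the 3 highest T and NK marker sums, and the KO_Oil libraries differed little from each other in that sum. The sum of KO_CCL4 24 lay inside the WT_Oil range. In that library Gbp3, Gbp6, Gbp7, Igtp, Irgm1 and Irgm2 were above all wild-type libraries, and Gbp2, Iigp1, Tgtp1, Psmb8 and Psmb9 were not. For Igtp and Irgm2 the margin was narrow, at 35.01 and 73.4 CPM against 34.99 and 72.2 CPM in WT_Oil 2. Irgm1 was at 56.3 CPM against 53.9 CPM in WT_Oil 1. Single markers had few reads, such as 3 and 25 for Trac in KO_Oil 11 and 12. Of the 17 markers 14 were in the table, each with at least 1 read in every library, 11 were tested, and Gzmb and Nkg7 were called higher in KO_Oil than in WT_Oil (log2 fold changes 2.66 and 2.65). B cell markers summed to 4.48 to 7.15 CPM in WT_Oil and to 10.1 and 11.6 CPM in KO_Oil, with 1 of 5 called (Ms4a1). Summed Kupffer cell markers were at 290.6 to 385 CPM in WT_Oil and 478 and 401.5 CPM in KO_Oil 11 and 12, and neutrophil markers at 1.36 to 3.63 CPM and 7.90 and 6.25 CPM. Stellate cell marker sums were also higher in both KO_Oil libraries, at 458 and 429 CPM against 378 to 413 CPM. Of the 5 stellate cell markers, however, 3 had a negative log2 fold change, and the median was -0.03. Hepatocyte marker sums were lower in both, at 42530 and 47440 CPM against 56410 to 63780 CPM. The sums of the other 3 lists overlapped between WT_Oil and KO_Oil. None of the markers of Kupffer cells, monocytes and infiltrating macrophages, plasmacytoid dendritic cells, neutrophils, sinusoidal endothelium, stellate cells or hepatocytes was called higher in this comparison. The part of these cells in the result was not tested.

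Few reads came from the ligand genes. Of 21 interferon ligand genes, 20, Ifng and Ifnb1 among them, stood in the authors' list of genes under 10 counts, and the other one, Ifnk, was at 0.136 to 1.27 CPM. None of the 13 receptor and JAK-STAT genes tested was called after oil. Ifnar1 was at 56.4 to 66.5 CPM in WT_Oil and 61.3 and 65.1 CPM in KO_Oil, and Ifngr2 at 23.7 to 27.0 CPM and 21.4 and 30.0 CPM. Ifnar2 was at 84.0 to 104.0 CPM and 86.7 and 84.8 CPM, and Ifngr1 at 24.9 to 25.3 CPM and 38.3 and 30.4 CPM. Reads of the receptor chains of both interferons were thus present in both oil groups.

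None of 11 inhibitors was called, and Socs1, the main brake on interferon gamma signalling, was below 1 CPM in all libraries. Tlr3, a sensor of double-stranded RNA, was the one of 17 sensing pathway genes called higher after oil (log2 fold change 1.36 ± 0.34, adjusted p = 0.0432). That is 5.88% of the list, against 2.19% of all genes.

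Further genes of both kinds outside the 39 were counted as well. These lists were chosen with earlier results of these data known, so their shares are a description only. Of 28 further gamma-induced genes tested, 6 were called higher after oil (21.4%, against 2.19% of all genes) and 0 lower, with a median log2 fold change of 0.91. They were Gbp11 (3.39), Cd274 (1.77, the checkpoint ligand PD-L1), Psmb10 (1.49, the remaining immunoproteasome subunit), Cxcl9 (2.59, a chemokine that draws T cells), Gbp10 and Gvin1. Cxcl9 was at 7.95, 5.87 and 7.11 CPM in WT_Oil and at 19.1 and 64.3 CPM in KO_Oil (adjusted p = 0.0213). Cxcl10, a chemokine of both interferons, was at 6.70, 1.91 and 1.75 CPM and at 6.604 and 10.9 CPM and was not called (adjusted p = 0.176). Of 41 further interferon-induced genes 1 was called higher (Trim30d, 1.33) and 1 lower (Tor3a, -1.87), with a median of 0.60. Each is 2.44% of that list, near the 2.19% higher and 1.92% lower of all genes. At an unadjusted p below 0.05, however, 18 of the 41 (43.9%) were higher and 2 (4.88%) lower, against 10.2% and 9.79% of all genes. The groups did not overlap for 24 higher (58.5%) and 3 lower (7.32%), against 19.7% and 19.2% of all genes.

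CCl4 changed few of these genes in wild-type liver. Of the 39, 0 were called higher and 2 lower after CCl4 against oil, beside 6.98% and 1.51% of all genes. The median log2 fold change was -0.03 for type I induced and -0.05 for gamma-induced genes, against -0.02 for all genes. With a library left out the type I median was -0.111 to 0.021, and the gamma-induced median ran from -0.441 without WT_CCL4 4 to 0.096 without WT_CCL4 5, so its sign rests on single libraries. Both called genes were type I induced, and neither call held under every alternative tried. Upper quartile scaling, a fit of the compared groups alone and the GC offset each called 1 higher (Oas1a) and 1 lower (Irf9), and DESeq2 called 1 higher and 2 lower.

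Irf9 was at 56.9, 55.7 and 51.3 CPM in WT_Oil, 35.2, 34.0 and 38.99 CPM in WT_CCL4, 40.9 and 56.5 CPM in KO_Oil and 44.1, 41.9 and 50.3 CPM in KO_CCL4. The wild-type groups did not overlap, and the log2 fold change was -0.60 ± 0.15 (adjusted p = 0.0263), with a highest adjusted p of 0.109 when single libraries were left out. Irf9 overlaps Rnf31 on the same strand. Ifit1, which binds viral RNA that lacks a host cap mark, was at 26.2, 10.4 and 12.4 CPM in WT_Oil, 6.79, 9.25 and 4.238 CPM in WT_CCL4, 18.5 and 19.6 CPM in KO_Oil and 10.6, 15.3 and 10.3 CPM in KO_CCL4. It fell by 1.26 ± 0.35 on the log2 scale (adjusted p = 0.0447), with WT_Oil 1 far above the rest of its group, and by 0.74 without that library (not called). With an offset for GC content its adjusted p was 0.0741.

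Other type I induced genes went the other way in value without a call. Oas1a, Ifi44 and Oas2 had log2 fold changes of 1.38 ± 0.40 (adjusted p = 0.0525), 1.20 ± 0.41 (adjusted p = 0.0905) and 1.26 ± 0.47 (adjusted p = 0.126). Oas1a and Oas2, named here after their values were seen, make the short oligoadenylates that switch on RNase L. Oas1a was at 3.29, 1.98 and 2.05 CPM in WT_Oil and 6.22, 6.37 and 6.31 CPM in WT_CCL4, so its groups did not overlap. It was called higher by DESeq2 (adjusted p = 0.0164), with upper quartile scaling (0.0427), with only the groups compared (0.0158) and with the GC offset (0.0338). It was also called without WT_Oil 1 (0.0493), KO_CCL4 25 (0.0123), KO_CCL4 15 (0.0219) or both E-titled libraries (0.0136). It has a near copy, Oas1g. The gamma-induced genes lay between -0.43 and 0.16, and Irgm1, Irgm2 and Igtp had WT_CCL4 values below all WT_Oil values without a call, which is 3 of 11 (27.3%) against 11.7% of all genes.

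Around the 39, 3 of 13 receptor and JAK-STAT genes (Ifngr1, Irf8 and Il10rb, 23.1%) were called higher after CCl4 in wild type. So were 3 of 17 sensing pathway genes (Tlr7, Tlr9 and Tlr4, 17.6%), against 6.98% of all genes. Ifngr1 was at 25.3, 25.3 and 24.9 CPM in WT_Oil and 52.8, 33.9 and 49.8 CPM in WT_CCL4 (log2 fold change 0.85 ± 0.19, adjusted p = 0.0177). Of 41 further interferon-induced genes 3 were called higher (Ifi27l2b, Slfn2 and Slfn8, 7.32%) and 1 lower (Tor3a, 2.44%). Of 28 further gamma-induced genes 1 was called higher (Ciita, 3.57%). These shares of called genes were near or below those of all genes, 6.98% higher and 1.51% lower. At an unadjusted p below 0.05, however, 17 of the 41 further interferon-induced genes (41.5%) were higher and 3 (7.32%) lower. Over all genes those shares were 15% and 8.14%. The median log2 fold change of the 41 genes was 0.40, against -0.02 for all genes. In the same comparison 8 of 9 markers of monocytes and infiltrating macrophages and 4 of 5 B cell markers were called higher. Their part in these changes was not tested.

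**Figure D4:**
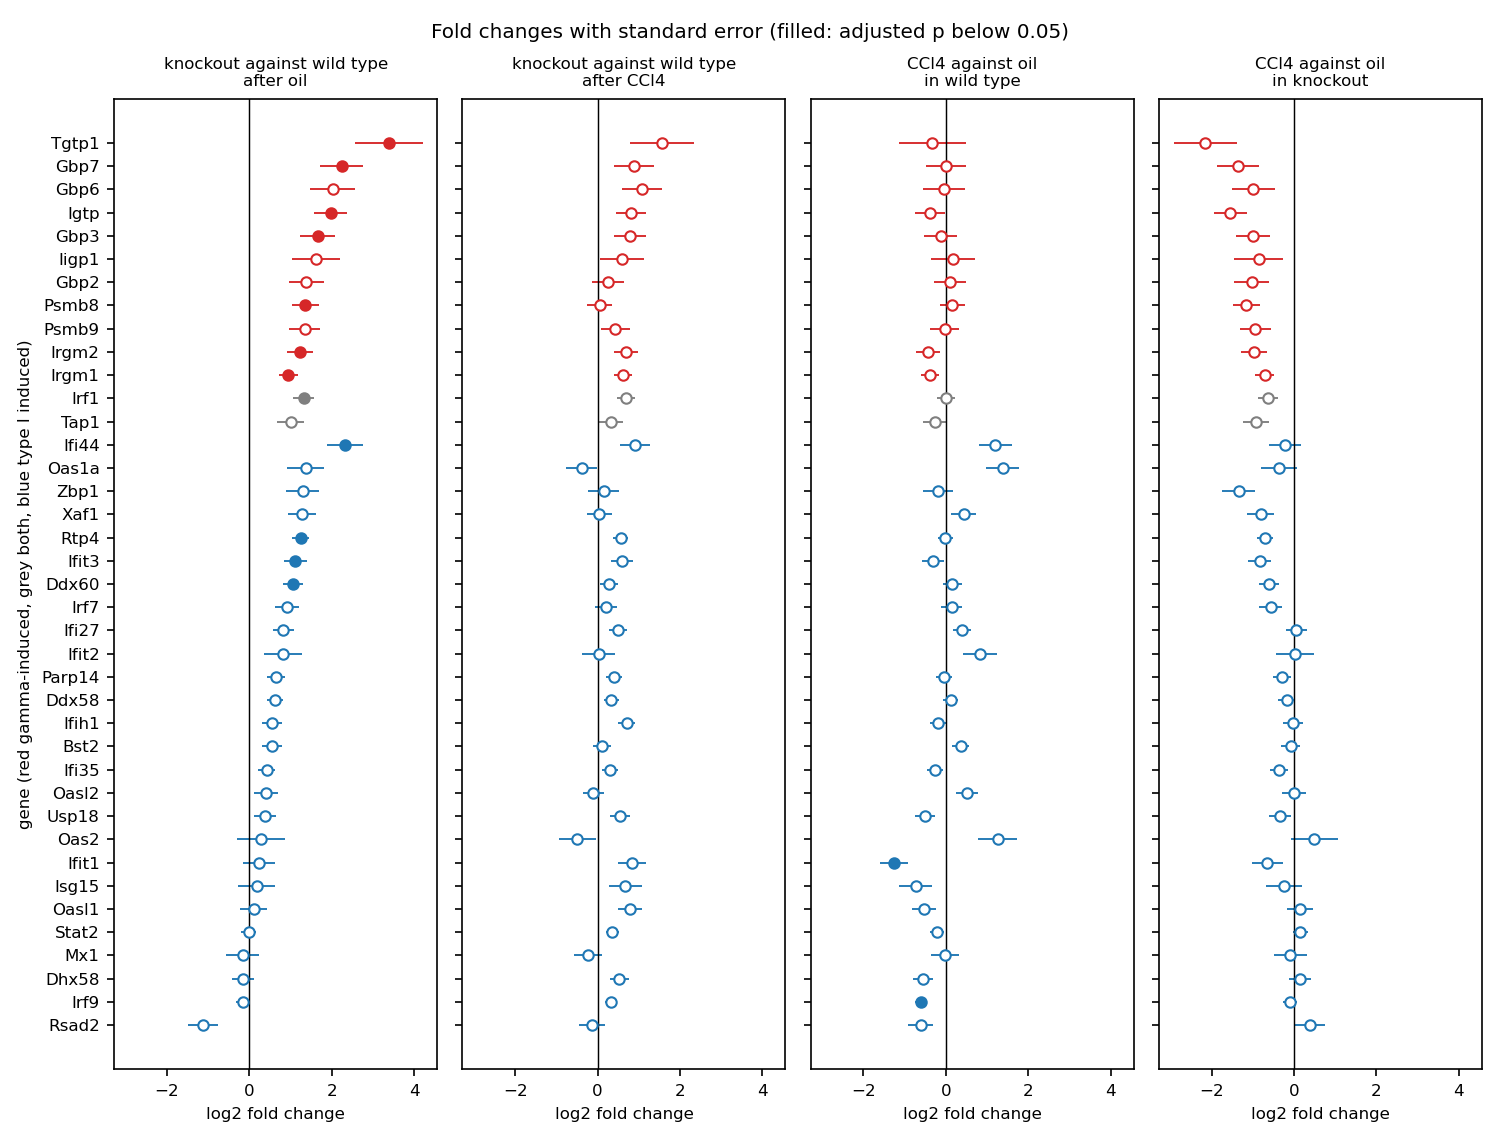
Log2 fold change with its standard error for each of the 39 genes (rows, red gamma-induced, grey both, blue type I induced) in 4 comparisons, with filled points for an adjusted p below 0.05. All 11 gamma-induced genes are right of 0 for knockout against wild type after oil and left of 0 for CCl4 against oil in the knockout, while in wild type they sit near 0. The panels share groups and are not independent.

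In knockout liver none of the 39 was called between CCl4 and oil by edgeR, beside 0.652% of all genes. At an unadjusted p below 0.05, 16 were lower and 0 higher, against 5.78% and 7.26% of all genes. DESeq2 called 1 (Igtp, adjusted p = 0.0144) and limma-voom 0. All 11 gamma-induced genes had a negative log2 fold change, with a median of -1.0, and the median of the type I induced genes was -0.20. The gamma-induced median was -0.359 without KO_Oil 12 and -1.559 without KO_CCL4 25. The type I median was -0.412 without KO_CCL4 25, -0.125 without KO_CCL4 24 and -0.053 without KO_CCL4 15. Igtp had the lowest p (log2 fold change -1.55 ± 0.40, adjusted p = 0.106), and Psmb8 stood at -1.16 ± 0.33 (adjusted p = 0.149). Igtp was called without KO_Oil 11, and Psmb8 without KO_CCL4 25. This comparison shares the KO_Oil libraries with the one after oil, so high values there enter both.

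After CCl4, none of the 39 was called between knockout and wild type, beside 1.2% of all genes, and DESeq2 and limma-voom also called 0. At an unadjusted p below 0.05, 16 were higher and 0 lower, against 6.78% and 9.93% of all genes, and 12 had knockout libraries all above the wild-type libraries, against 9.25%. The median log2 fold change was 0.69 for gamma-induced and 0.33 for type I induced genes, or 0.466 and 0.17 without KO_CCL4 25. Ifih1 had the lowest p, followed by Rtp4 and Irf1, all given above. Without both E-titled libraries, which leaves KO_CCL4 15 alone on the knockout side, the gamma-induced median was -0.14 and so changed sign, and the type I median was 0.141.

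Whether CCl4 acted differently in the 2 genotypes was asked by the interaction term. None of the 39 was called, beside 0.101% of all genes, with 1 higher and 6 lower at an unadjusted p below 0.05 (5.74% and 8% of all genes), and DESeq2 and limma-voom called 0. The median was -1.02 for gamma-induced and -0.32 for type I induced genes, and the gamma-induced median was -0.25 without KO_Oil 12, and the type I median -0.522 without KO_CCL4 25. Oas1a had the lowest p (log2 difference -1.75 ± 0.59, adjusted p = 0.218) and was called without KO_CCL4 25 (-2.42, adjusted p = 0.0386).

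Per length of transcript, the levels in WT_Oil spanned a wide range. In the authors' FPKM values (counts scaled by gene length and library total) the highest were Iigp1 at 66.2 ± 41.2 FPKM (SD, n = 3), Bst2 (tetherin) at 59.8 ± 9.64 FPKM and Ifi27 at 34.0 ± 7.08 FPKM, and the Iigp1 spread covers both others. Irgm2 and Igtp followed at 15.5 ± 3.59 and 13.6 ± 3.04 FPKM, within each other's spread. The lowest were Oas2 at 0.472 ± 0.135 FPKM and Ifi44 at 0.232 ± 0.0688 FPKM. Of the 11 gamma-induced genes 4 were thus among the 10 highest, and Gbp2, Gbp3, Gbp6 and Gbp7 were all below 4 FPKM.

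The authors' deposited table gave 19 of the 39 genes an adjusted p below 0.05 for knockout against wild type after oil, 18 higher and Rsad2 lower, beside 5.46% of all genes. The authors' deposited table also gave 3 for CCl4 in wild type (Irf9 and Ifit1 lower, Oas1a higher, beside 9.73% of all genes), 3 lower for CCl4 in the knockout (Psmb8, Igtp and Zbp1, beside 1.72%) and 1 higher between genotypes after CCl4 (Ifih1, beside 3.11%). As shares of the 39, the counts for CCl4 in wild type and between genotypes after CCl4 were below those of all genes.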

How the data were processed

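Liver RNA of 11 libraries was analysed in 4 groups, taken from the labels for genotype and treatment. A stranded kit for total RNA was used, per the labels' protocols, whereas the series' design text mentions capped RNA. The data used here do not settle the point. The submitters' processing notes name the tools Bowtie and DESeq2 and the builds GRCm38 and mm10, without versions. Per the file headers, the authors deposited counts per gene made with the USeq tools, in which a pair of reads adds 1 and an overlap of 1 base with a gene suffices. A read in overlapping genes can therefore count for each. The use of strand and the treatment of reads with several matches are not given in the sources used here, so reads of a gene cannot be told from those of an antisense partner. Among the genes named, Irf1, Irf7, Irf9, Usp18, Dhx58, Gbp2, Gbp6, Gbp7, Igtp, Irgm2, Tgtp1, Tgtp2, Tap1, Psmb8, Psmb9, Ifi35, Rtp4, Cxcl10, Psmb10, Gbp10, Ifnar2, Il10rb, Irf8, Ifnk and Ciita overlap another gene of the table. The FPKM values deposited by the authors are counts scaled by gene length and library total. The authors' deposited log2 ratios come from DESeq2, and their deposited score is minus 10 times the log10 of its adjusted p. Both were copied only for comparison, with ratios turned so that a positive sign stands for a higher level after CCl4 or in knockout liver.

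The quasi-likelihood test of edgeR 4.0.16, run in R 4.3.3 after TMM scaling, was applied to the counts of all genes. filterByExpr (minimum count 10, minimum total 15) kept 16866 genes and removed 2341. One fit of 4 group means over all 11 libraries had 7 residual degrees of freedom, and p-values were adjusted by Benjamini-Hochberg over all genes tested, with calls below 0.05. CPM values use TMM-adjusted library sizes. The method was tested on simulated counts. The genes, their classes, 6 pathway lists of 135 genes and 9 lists of cell markers were chosen with earlier results of these data known, so lists are described by counts and medians without a set test. Full values are given for called genes and for 17 genes named by rule, others by range. A gene of the pathway lists is not reported here. Alternatives were RLE and upper quartile scaling, no filter or a mean of at least 5 CPM, DESeq2 1.42.0, limma-voom (limma 3.58.1), a fit of the compared groups alone, leaving out each library in turn, both E-titled libraries left out, Irf1 and Tap1 counted with either class, and, chosen after seeing the data, a GC content offset. Where 1 library was left in a group, it was assumed to vary like the others. Promoters came from RefSeq (GRCm38.p6), whose start sites can differ from the gene starts of the table, and genes without an entry were not searched.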

Additional observations from a re-analysis of the deposited data

How the results depend on the processing

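No call of the 39 genes changed sign under any alternative. After oil, the count of 12 called genes was 19 with DESeq2 (18 higher, 1 lower), 7 with limma-voom, 19 without both E-titled KO_CCL4 libraries, and 1 to 19 over the fits that each left out a library. The gamma-induced median was 0.845 to 2.048 over those fits. For CCl4 in wild type the count of 2 was 0 with the filter at a mean of 5 CPM, 1 with limma-voom, 3 with DESeq2, and 0 to 4 with a library left out, and the gamma-induced median was -0.441 to 0.096 with a library left out. For CCl4 in the knockout the count of 0 was 1 with DESeq2, 1 without both E-titled libraries, and 0 to 1 with a library left out. There the type I and gamma-induced medians were -0.559 and -2.028 without both E-titled libraries, and with a library left out they were -0.412 to -0.053 and -1.559 to -0.359. Between genotypes after CCl4 the gamma-induced median was -0.138 and the type I median 0.141 without both E-titled libraries, and 0.466 to 0.868 and 0.17 to 0.446 with a library left out. For the interaction the count of 0 was 2 and the medians were -0.614 and -1.896 without both E-titled libraries. With a library left out the interaction count was 0 to 1, the type I median -0.522 to -0.218 and the gamma-induced median -1.523 to -0.253. The causes were not tested.

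Of the 14 calls, 14 were kept with RLE scaling, no filter and DESeq2, 13 with the GC offset and without both E-titled libraries, 11 with upper quartile scaling and with only the groups compared, 10 of 13 tested with the 5 CPM filter, and 8 with limma-voom. Counting Irf1 and Tap1 with either class moved no class median beyond the spread between libraries. No paired analysis was possible because the groups have no replicate number in common. KO_Oil has 2 libraries, the shallowest of the 11, and low-count genes such as Ifi44, Oas2 and Isg15 have the least precise values.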

Other observations

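Within KO_CCL4, all 11 gamma-induced genes were highest in library 25 and lowest in library 15. Relative to the mean of the other libraries of the group, their median log2 difference was 0.98 in library 25, -0.05 in library 24 and -0.98 in library 15. For the 26 type I induced genes the same medians were 0.52, -0.13 and -0.36. Libraries 24 and 25 carry the letter E in their titles and 15 does not, so both E-titled libraries were above the other for all 11 genes. What the letter stands for is not given, and its part in the difference was not tested. In WT_CCL4, library 5 was lowest for 9 of the 11 gamma-induced genes, and library 4 was highest for 7.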
